A study of Mus musculus with 12 samples.

Results

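PGC-1alpha knockout muscle was compared with floxed control muscle on 3 two-dye arrays of mouse gastrocnemius, a calf muscle of mixed fibre type. The 3 arrays were chosen by their titles from a series of 12, and 15892 of the 19437 genes on the array had a usable ratio on at least 2 of them. The Cy5 dye marked RNA of PGC-1alpha -/- mice, labelled as null for the gene in all tissues. The Cy3 dye marked RNA of PGC-1beta f/f mice, whose PGC-1beta gene carries loxP sites but which have no Cre, so the groups also differ in that floxed allele by their labels. All mice were males of 12 weeks with the strain given as C57BL6/J x sv129. Of the other 9 arrays, 3 set PGC-1betaf/f/Mlc1fCre muscle, in which the myosin light chain 1f promoter drives Cre in muscle fibres, against floxed RNA. A further 3 set PGC-1alpha-/- beta f/f/Mlc1fCre muscle, the double knockout, against floxed RNA, and the last 3 hybridised the double knockout with alpha knockout RNA. By these contrasts they are named alpha, beta, double and direct arrays here. No array had the dyes exchanged, and the labels say neither that arrays of a group came from separate mice nor how many control mice were used, so p-values measure the spread between arrays only.

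PGC-1alpha, encoded by Ppargc1a, is a transcriptional coactivator: it binds no DNA itself and is recruited by nuclear receptors such as ERR alpha, by NRF1 and GABP, and by MEF2 factors. In muscle it is induced by exercise and cold, and is known for raising the transcription of genes of oxidative phosphorylation, fatty acid oxidation and slow, fatigue-resistant fibres. PGC-1beta, encoded by Ppargc1b, is its closest relative and shares many of these targets. AMP-activated protein kinase, a sensor of low cellular energy, acts upstream of PGC-1alpha.

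The knockout in an array's title was not the one in its channel label for 6 arrays of 12, among them 2 of the 3 alpha arrays. The channel label of alpha 2 names the PGC-1beta knockout and that of alpha 3 the double knockout. The mean alpha ratios in the authors' deposited tables matched, within 0.006, the mean over the 3 titled arrays for 100% of 9610 probes in the down table and 100% of 5990 in the up table. Grouping by channel label matched 2.47% and 0.918%. The groups here follow the titles. Of 40928 probes, between 64.5% and 69.8% gave a usable ratio on each alpha array. The log2 ratios of the 3 arrays correlated with each other at 0.45 (alpha 1 and 2), 0.62 (alpha 1 and 3) and 0.58 (alpha 2 and 3) across genes, which are not independent replicates. Each value below is a log2 ratio of knockout over floxed control, centred on the array's median gene. It holds no expression level, so neither the tissue identity nor the abundance of any gene can be read from it, and fewer cells of a type cannot be told apart from less RNA per cell.

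Ppargc1a itself lies on chromosome 5 (chr5:51454249-52115853, GRCm38.p6). Its log2 ratio was -0.52 on alpha 1, -2.56 on alpha 2 and -1.29 on alpha 3. All 3 arrays were therefore below the median gene, by unequal amounts. The mean of -1.46 ± 1.03 (SD, n = 3) did not pass limma's test over all genes (adjusted p = 0.0845), and its 95% interval ran from -2.50 to -0.41. Of its 2 probes, 1 averaged -1.01 over 3 arrays and the other -2.59 over the 2 arrays on which it was usable. No source used here says whether either probe lies in the deleted part of the gene, so the ratio is a limited check of the labels. The double arrays, which carry the same null allele, gave a mean of -1.33. The beta arrays, which do not, read -0.07, -0.47 and -0.97, so beta 3 lay within the range of the alpha arrays. Its relative Ppargc1b read 0.71, 1.34 and 1.35 on the alpha arrays, a mean of 1.13 ± 0.37 (SD, n = 3) that missed the threshold (adjusted p = 0.0534). Its 3 probes disagreed, with means of 1.62, -0.16 and 1.95. Pprc1, the third and more distant family member, had values of 1.67, 0.96 and 1.00 and also missed it (mean 1.21, adjusted p = 0.0504).

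Across the genome, 1060 genes changed in limma's moderated test of the 3 log2 ratios against 0, with Benjamini-Hochberg adjustment over all 15892 genes at 0.05. They were 6.67% of the genes tested. Of these, 706 rose (4.44%) and 354 fell (2.23%). The smallest change called was 1.01 on the log2 scale, about a doubling, and the median was 1.43 among genes that rose and -1.60 among those that fell. All adjusted p of called genes lay between 0.0392 and 0.04998, so they are given below only where a gene missed the threshold. Where a gene list had no gene called down, the number of its members below 0 at limma's unadjusted p under 0.05 stands in brackets after "none fell". Over all 15892 genes, 5204 had an unadjusted p under 0.05 in limma's test, both directions together. A bracketed count alone therefore does not set a list apart. By a simpler count, 511 of the 13130 genes with 3 values were at or above 1 on every alpha array (3.89%) and 218 at or below -1 (1.66%). The call depended on all 3 arrays. Without alpha 1 or without alpha 2 limma called 0 genes, against 4502 and 4530 at an unadjusted p under 0.05, and without alpha 3 it called 228. When ratios of dim or equal signals were kept, it called 0, with 5701 at an unadjusted p under 0.05.

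The share of calls followed how often a gene's signal was weak. Of the 3675 genes whose values were never undefined or dim on the other 9 arrays, 8.08% rose and 3.29% fell. Of the 1332 genes that were so in over 60% of those values, 0.45% rose and 1.20% fell. The median ratio went from 0.12 in the first of these groups to -0.29 in the last. Before they were left out, and before centring, dim ratios had log2 medians between -1.37 and -0.94 on the alpha arrays. The median genes stood at 0.30, -0.03 and -0.12 on alpha 1 to 3 at that stage. The part of signal strength in any gene's ratio was not tested. List shares below are set against all genes and are not matched for signal.

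The genes given as markers of this comparison covered chromatin, energy sensing, respiration and contraction. Kdm6b, a demethylase of histone H3 lysine 27, read 3.67 on alpha 2 and 3.83 on alpha 3 and had no usable value on alpha 1. Its mean of 3.75 ± 0.12 (SD, n = 2), 13.5-fold, rests on those 2 arrays and 1 probe. Prkaa2, the catalytic alpha 2 subunit of AMP-activated protein kinase and its main form in skeletal muscle, read 1.91, 1.74 and 2.49. The 3 arrays lay close together, and the gene rose 4.14-fold (mean 2.05 ± 0.39, SD, n = 3). Tnnt1, the troponin T of slow fibres, read 2.34, 2.23 and 2.13, a 4.71-fold rise with a narrower spread (mean 2.23 ± 0.10, SD, n = 3). Cox7b, a small nuclear-encoded subunit of cytochrome c oxidase, read -1.90, -1.76 and -1.68 and fell 3.44-fold (mean -1.78 ± 0.11, SD, n = 3). The beta and double arrays share the floxed control RNA. On beta 1 and 2 together Kdm6b was at 2.43, Prkaa2 at 1.34, Tnnt1 at 1.89 and Cox7b at -1.55. On beta 3 Kdm6b had no usable value, and Prkaa2, Tnnt1 and Cox7b read -0.32, -3.12 and -1.53. The double arrays gave Kdm6b 2.17, Prkaa2 -0.12, Tnnt1 2.25 and Cox7b -1.17. Kdm6b and Prkaa2 were at -3.19 and -2.37 on the direct arrays, whose denominator is alpha knockout RNA. Cox7b was at 1.29 there and Tnnt1 at -0.05.

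Among genes with the same sign on all 3 arrays, the largest rise was that of Cacna2d1, which encodes the alpha-2/delta-1 subunit of voltage-gated calcium channels, including the dihydropyridine receptor of muscle. It read 2.60, 2.53 and 2.79 (mean 2.64 ± 0.13, SD, n = 3). Fez1, an adaptor of kinesin-based transport, came next with 3.30, 2.08 and 2.35 (mean 2.58 ± 0.64). Bckdk, the kinase that switches off branched-chain ketoacid breakdown, read 2.05, 2.49 and 3.02 (mean 2.52 ± 0.49). Klhl31, a kelch protein that mice need for normal skeletal muscle, was at 2.23, 2.55 and 2.48, with probe means of 1.28 and 3.56. The list of the 10 largest rises was completed by Clec3b (2.43), which encodes the plasminogen-binding protein tetranectin, Ocel1 (2.43), the membrane protein gene Smco1 (2.38), the EF-hand calcium-binding protein gene S100a16 (2.37), the actin-depolymerising factor gene Dstn (2.37) and Thap6 (2.37). Thap6 read -0.045 when a term for a gene-specific dye effect was fitted, the only named called gene whose direction turned in any alternative.

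**Figure D1:**
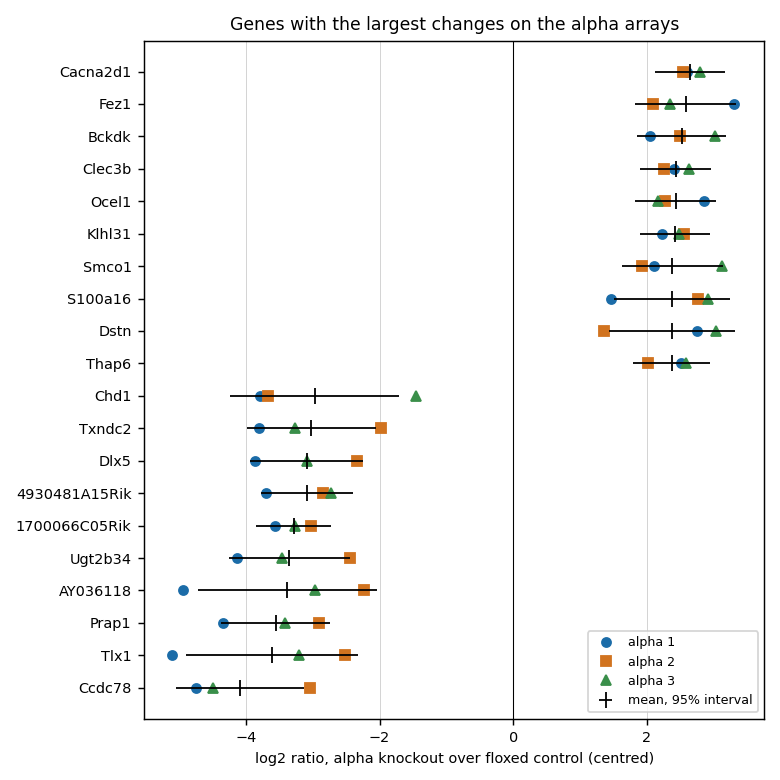
Centred log2 ratios of the 10 largest rises and 10 largest falls among called genes of 1 sign on all alpha arrays. Each symbol is 1 alpha array, and the black tick and line give the mean and limma's 95% interval. Means run from 2.64 (Cacna2d1) down to -4.09 (Ccdc78), and alpha 1 lies lowest for each of the falling genes shown.

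The 10 largest falls were larger in size and more spread between arrays. Ccdc78, a coiled-coil protein of centriole formation whose human gene is linked to a congenital myopathy, read -4.74, -3.04 and -4.49 (mean -4.09 ± 0.92, SD, n = 3). The homeobox gene Tlx1 read -5.10, -2.52 and -3.21 (mean -3.61 ± 1.34), and the homeobox gene Dlx5 read -3.86, -2.33 and -3.08 (mean -3.09 ± 0.76). Alpha 1 was the lowest array for both. The others were Prap1 (-3.55), known for expression in gut epithelium and pregnant uterus, AY036118 (-3.38), the glucuronosyltransferase gene Ugt2b34 (-3.35), 1700066C05Rik (-3.29), 4930481A15Rik (-3.09), the sperm thioredoxin gene Txndc2 (-3.02) and the chromatin remodeller gene Chd1 (-2.97). Chd1 mixed a probe at -3.64 with another, usable on alpha 3 only, at 0.56. The beta and double arrays have the floxed control RNA in common with the alpha arrays. On beta 1 and 2 together Ccdc78 was at -3.24, Tlx1 at -2.06, Dlx5 at -2.22, Ugt2b34 at -2.38 and AY036118 at -2.69. On beta 3 they read 2.05, 1.68, 1.52, 1.504 and 3.05 in that order. On the double arrays they lay between -1.69 (Ccdc78) and -0.46 (AY036118). These falls were thus not seen on the alpha arrays only, and the part of the control RNA was not tested. On the direct arrays Ccdc78 read 2.07, Tlx1 1.85, Dlx5 2.77, Ugt2b34 2.48 and AY036118 3.21, the reverse sign with alpha RNA in the other dye. Those arrays share the alpha knockout RNA. Before centring, their dim ratios had log2 medians of 1.02, 0.73 and 1.40 on direct 1 to 3. The median genes stood at -0.10, 0.01 and -1.76 there, so dim ratios lay above the median gene on each direct array.

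Complex I genes were called at about the share of all genes. Of 40 tested, 2 rose (5%, against 4.44%) and 1 fell (2.5%, against 2.23%), with a median log2 ratio of 0.00 against -0.01 for all genes. With a term for a gene-specific dye effect, which uses the direct arrays, 0 rose and 6 fell and the median was -0.50, and with groups by channel label 1 rose and 3 fell. Ndufa10, an accessory subunit, read 1.96, 1.22 and 2.12 (mean 1.77 ± 0.48), and the assembly factor gene Ndufaf3 averaged 1.39. Ndufb3, another accessory subunit, read -1.03, -1.94 and -1.68 and fell by 1.55 on the log2 scale. All 3 genes were on 1 side of 0 on every array. Of 17 genes of complexes II and III, 2 rose (11.8%) and none fell (2). Both encode succinate dehydrogenase: Sdhc, its membrane anchor, read 1.53, 1.36 and 1.82 (mean 1.57 ± 0.23), and Sdha, the flavoprotein, averaged 1.35 ± 0.38. The list's median was 0.31, and with the dye term 0 rose, 2 fell and the median was -0.10.

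Complex IV was the only respiratory list with more genes called down than up. Of its 20 genes tested, 3 fell (15%, against 2.23% of all genes) and 1 rose, 4 had a mean above 0, and the median was -0.44. Besides Cox7b, the copper chaperone gene Cox17 fell (-2.07, -1.86 and -2.17, mean -2.03 ± 0.16). Its 2 probes differed in size, at -0.62 and -3.45. The small structural subunit gene Cox7c read -1.10, -1.45 and -1.07 and averaged -1.21 ± 0.21. Cox7a2l, which takes part in assembling respiratory supercomplexes, rose on all arrays (1.78, 1.04 and 1.39, mean 1.40 ± 0.37). The median of complex IV was -0.33, -0.75 and -0.28 on alpha 1 to 3, so alpha 2 was the lowest. Of the 16 ATP synthase genes, 2 rose (12.5%, against 4.44% of all genes), 6 had a mean above 0, and the list median was -0.25. With the dye term 0 rose, 4 fell and the median was -1.02, and by channel label 0 rose and 3 fell. They were Atp5g2 (1.19, 1.03 and 1.30, mean 1.17 ± 0.14), a subunit of the proton-conducting c ring, and Atp5d (1.33, 1.00 and 1.01, mean 1.11 ± 0.18), the delta subunit of the catalytic head. None of this list passed downward (3), and Atp5k and Atp5h, membrane-part and stalk subunits, had means of -0.91 (adjusted p = 0.0736) and -0.79 (adjusted p = 0.0896).

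**Figure D2:**
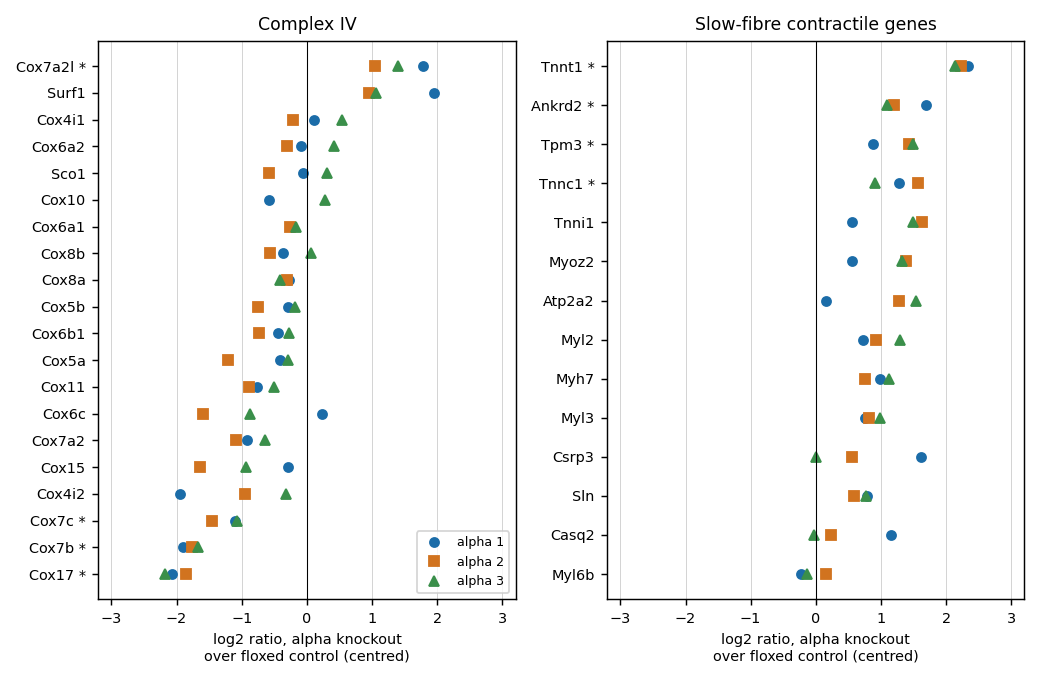
Centred log2 ratios on each alpha array for the tested genes of complex IV (left) and of the slow-fibre list (right), sorted by mean, with called genes marked by an asterisk. In complex IV, 4 of 20 means lie above 0, and in the slow-fibre list 13 of 14 do.

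Slow-fibre contractile genes had the highest median of the 30 gene lists on the alpha arrays. Of 14 tested, 4 rose (28.6% against 4.44% of all genes) and none fell (0), 13 had a mean above 0, 11 were above 0 on all 3 arrays, and the median was 0.98. Beside Tnnt1, the stretch-responsive Ankrd2 read 1.68, 1.21 and 1.10 (mean 1.33 ± 0.31). The slow tropomyosin gene Tpm3 averaged 1.27 ± 0.34 and Tnnc1, the slow and cardiac troponin C, 1.25 ± 0.33. The slow myosin heavy chain Myh7 was at 0.96 (adjusted p = 0.0577), the slow light chains Myl2 and Myl3 at 0.98 (adjusted p = 0.0604) and 0.85 (adjusted p = 0.0646), and the slow troponin I Tnni1 at 1.22 (adjusted p = 0.0625), none of which passed. The list's median was 0.84, 1.06 and 1.11 on alpha 1 to 3, and it stayed between 0.85 and 1.18 under every alternative. On beta 1 and 2 together it was 0.81, on the double arrays 1.02 and on the direct arrays 0.10. On beta 3, the array left out of that fit, Tnnt1 read -3.12, Tpm3 -2.55, Ankrd2 -2.18 and Tnnc1 -1.34. The beta and double arrays share the floxed control RNA with the alpha arrays.

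Of 16 fast-fibre genes, 2 rose (12.5%, against 4.44% of all genes) and none fell (4), and the median was 0.08. Actn3, the Z-disc actinin of fast fibres, read 1.39, 1.94 and 2.38 (mean 1.90 ± 0.50), and Myoz1, a fast Z-disc protein that binds calcineurin, averaged 1.10 ± 0.22. The fast troponin I Tnni2 (-1.19, adjusted p = 0.0524), the IIb myosin Myh4 (-1.03, adjusted p = 0.0589) and parvalbumin Pvalb (-0.89, adjusted p = 0.0791) had negative means that did not pass. Of 28 genes of calcium handling between the T-tubule and the sarcoplasmic reticulum, 4 rose (14.3%) and none fell (1), with a median of 0.04. They were Cacna2d1, its companion channel subunit gene Cacng1 (1.55, 2.16 and 1.94, mean 1.88 ± 0.31), sarcalumenin Srl (mean 1.35 ± 0.07), a calcium buffer of the reticulum, and Stim1 (mean 1.22 ± 0.30), the reticulum's calcium sensor. Of 18 neuromuscular junction genes, none fell (3) and Rapsn, the anchor of acetylcholine receptors, rose, with values on 2 arrays (1.90 and 1.48). Of 12 regeneration genes, none fell (1) and M-cadherin Cdh15 rose (mean 1.28 ± 0.10). Calls upward made up 5.56% of the junction list and 8.33% of the regeneration list.

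Of 27 citric acid cycle genes, 2 rose (7.41%, against 4.44% of all genes) and none fell (3). Mitochondrial aspartate aminotransferase Got2 read 1.38, 1.18 and 1.14 (mean 1.23 ± 0.13) and mitochondrial isocitrate dehydrogenase Idh2 averaged 1.09 ± 0.23. Of 31 genes of fatty acid uptake and oxidation, 1 rose (3.23%) and 2 fell (6.45%, against 2.23% of all genes). Decr1, which handles double bonds of unsaturated fatty acids, averaged 1.23 ± 0.32, and the thioesterase gene Acot13 read -1.50, -1.28 and -1.27 (mean -1.35 ± 0.13). Hadh, the short-chain hydroxyacyl dehydrogenase, averaged -1.15 ± 0.28, but its probes were at -3.38 and 1.09. The medians of these lists were 0.14 and 0.13. With the dye term they were -0.26 and -0.17, with 0 genes higher in either list, so their direction depended on that choice.

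Of 72 mitochondrial ribosome genes, none fell (7), and 33 were above 0 on all 3 arrays. In this list 6 rose (8.33%), against 4.44% of all genes and 8.08% of genes never undefined or dim on the other 9 arrays. The small-subunit protein genes Mrps11 (2.37, 1.60 and 1.83, mean 1.94 ± 0.39), Mrps23 (mean 1.68 ± 0.21) and Mrps7 (mean 1.49 ± 0.16) and the large-subunit protein genes Mrpl2 (1.56 ± 0.26) and Mrpl4 (1.41 ± 0.26) were among them. The list's median was 0.22. The cytosolic ribosome had 6 genes up (8.57%) and 1 down (1.43%) of 70, with a median of 0.14. With the dye term 1 rose, 9 fell and the median was -0.31. The family has many pseudogenes, these near-identical copies make single probes less certain. Rpl28 averaged 1.73 ± 0.09, Rpl8 1.67 ± 0.23, Rpl4 1.60 ± 0.39 and Rpl29 1.46 ± 0.32, whereas Rps4x averaged -1.36 ± 0.11.

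Among 32 genes of mitochondrial import, fusion and fission, 4 rose (12.5%, against 4.44% of all genes) and 1 fell (3.125%, against 2.23%). The median was 0.32. Fis1, an outer-membrane receptor of fission, read 1.69, 1.57 and 1.84 (mean 1.70 ± 0.14). Tomm7, a small subunit of the outer-membrane import pore, read -1.68, -1.89 and -1.90 (mean -1.82 ± 0.13). Both were tight across the arrays and of opposite sign. Timm13 and Timm50 of the inner-membrane import route averaged 1.41 ± 0.43 and 1.18 ± 0.23. The outer-membrane assembly gene Samm50 averaged 1.91 ± 0.68, with probes at -0.22 and 2.37.

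Promoter sequence is shown for 3 called contractile or mitochondrial genes that hold, within the 250 bases before their start, a motif of a factor through which PGC-1alpha is known to be recruited. The sequences are those of RefSeq on GRCm38.p6, 5′ to 3′ on the gene's strand, with the motif in capitals.
Tpm3, chr3:90072401-90072489, plus strand, ERR motif TCAAGGTCA: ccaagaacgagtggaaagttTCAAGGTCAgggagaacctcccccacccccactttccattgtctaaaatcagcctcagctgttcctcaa
Atp5g2, chr15:102671048-102671149, minus strand, NRF1 motif GCGCATGCG: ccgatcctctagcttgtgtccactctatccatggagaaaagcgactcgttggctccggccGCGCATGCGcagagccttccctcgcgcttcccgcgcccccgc
Fis1, chr5:136953197-136953274, plus strand, GABP motif CCGGAAGT: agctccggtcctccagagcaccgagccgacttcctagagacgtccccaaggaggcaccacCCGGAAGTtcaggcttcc

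Each motif was searched on both strands from 250 bases before to 50 after the start, in the 12722 tested genes with a RefSeq promoter off chromosome 18. The NRF1 motif was in 4.26% of 563 genes that rose, in 2.2% of 273 that fell and in 3.22% of all. These shares depend on the length chosen: a palindrome of 10 letters was in 3.2%, 0% (a count of 0 allows up to 1.1%) and 1.82%. The 10 letters were planned with earlier results of these data known, and the 9 letters were chosen later. The GABP motif was in 9.77%, 5.13% and 7% of the same groups. Motifs of other factors stood in the same order in the first and last group, with the GC box GGGGCGGGG in 24%, 16.8% and 20.9% and the CRE TGACGTCA in 3.91%, 2.93% and 2.97%. The ERR motif was in 0.178% of the genes that rose, where Tpm3 alone held it, in 0 of those that fell (a count of 0 allows up to 1.1%) and in 0.275% of all. The MEF2 motif CTAAAAATA, shortened from the 10 letters planned, was in 0.533%, 1.1% and 0.448%. The NRF1 letters overlap their own reverse complement at a palindromic site such as that of Atp5g2, and overlaps between different motifs were not searched. A match describes letters only.

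Genes of glucose handling were called upward only, at shares near that of all genes. They were 6.25% of the glycolysis list and 7.14% of the insulin list, against 4.44% of all genes. Of 32 genes of glycolysis, lactate and glycogen, 2 rose and none fell (1), 24 had a mean above 0, and the median was 0.39. Fbp2, the muscle fructose bisphosphatase, read 1.93, 1.67 and 2.42 (mean 2.01 ± 0.38) and Hk2, the insulin-responsive hexokinase, 1.85, 0.88 and 1.60 (mean 1.45 ± 0.51). Of 28 genes of insulin signalling and glucose uptake, 2 rose and none fell (2): the growth factor gene Igf1 (2.80, 2.73 and 1.46, mean 2.33 ± 0.75) and the kinase gene Akt2 (mean 1.30 ± 0.45). The list's median was 0.49. Of 13 genes of AMP-activated protein kinase and the kinases acting on it, Prkaa2 alone rose (7.69%) and none fell (0). Means above 0 were found for 12 (median 0.70). The other catalytic subunit gene, Prkaa1, was at -0.06 (adjusted p = 0.858), and the upstream kinase gene Camkk2 at 1.17 (adjusted p = 0.0862). Bckdk was the only 1 of 22 branched-chain amino acid genes to rise (4.5%), and none fell (3). With the dye term 1 branched-chain gene rose and 2 fell, and the called glycolysis genes no longer passed.

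Antioxidant enzymes rose in 5 of 21 cases (23.8%, against 4.44% of all genes) and none fell (3), while the median of 0.12 was near that of all genes. The peroxiredoxin gene Prdx2 read 1.69, 2.04 and 2.24 (mean 1.99 ± 0.28), and the glutathione peroxidase gene Gpx1 2.19, 1.57 and 1.95 (mean 1.90 ± 0.31). Glutathione reductase Gsr averaged 1.61 ± 0.21 and Gpx4, which reduces lipid peroxides, 1.54 ± 0.19. Nnt, which makes mitochondrial NADPH, averaged 1.57 ± 0.35, with probe means from 0.24 to 2.26. It is known to be deleted in part in C57BL/6J mice, and the labels name that background in all groups without saying which allele each mouse carried. Of 29 genes of lipolysis and triglyceride synthesis, 3 rose (10.3%) and 1 fell (3.45%, against 2.23% of all genes). They were the lipase coactivator gene Abhd5 (1.21 ± 0.23), the lipogenic factor gene Srebf1 (1.13 ± 0.14), the phosphatidate phosphatase gene Lpin1 (1.45 ± 0.55) and, downward, the lipid droplet gene Cidea (-1.38 ± 0.36).

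Stress and protein turnover genes were called mostly upward, as were called genes generally (4.44% of all genes rose and 2.23% fell). Of 21 genes of the integrated and endoplasmic reticulum stress responses, 3 rose and none fell (1), all 3 of them transcription factors. Xbp1 read 2.00, 2.47 and 1.96 (mean 2.14 ± 0.29), Atf4 1.71, 1.55 and 1.84 (mean 1.70 ± 0.15) and Cebpb 1.45, 1.35 and 1.61 (mean 1.47 ± 0.13). Of 30 chaperones and heat-shock genes, 2 rose and 1 fell: Hspb8, a small heat-shock protein of muscle autophagy (2.26, 2.43 and 1.09, mean 1.93 ± 0.73), the mitochondrial scaffold gene Phb2 (1.07 ± 0.08) and, downward, the mitochondrial co-chaperonin gene Hspe1 (-1.29 ± 0.14). The medians of these lists were 0.49 and 0.54. Genes that rose made up 14.3% and 6.67% of them, and 3.33% of the second list fell.

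Of 28 atrophy and autophagy genes, 5 rose (17.9%) and none fell (3), with a median of 0.20. The mitophagy receptor genes Bnip3 (2.40, 1.51 and 1.84, mean 1.92 ± 0.45) and Bnip3l (mean 1.30 ± 0.14), the autophagosome gene Gabarap (1.56 ± 0.24) and Becn1 (1.45 ± 0.48), which starts autophagosome formation, were among them. The fifth was Trim63, the muscle ubiquitin ligase MuRF1, at 2.38, 1.30 and 1.90 (mean 1.86 ± 0.54). Proteasome subunits rose in 7 of 41 cases (17.1%) and none fell (4), 28 were above 0 on all 3 arrays, and the median was 0.62. The regulatory-particle genes Psmd2 (1.68, 1.92 and 1.47, mean 1.69 ± 0.23), Psmd5 (1.38 ± 0.17), Psmd7 (1.30 ± 0.17) and the ATPase gene Psmc3 (1.37 ± 0.38) rose, as did the core-particle gene Psmb2 (1.14 ± 0.24).

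**Figure D3:**
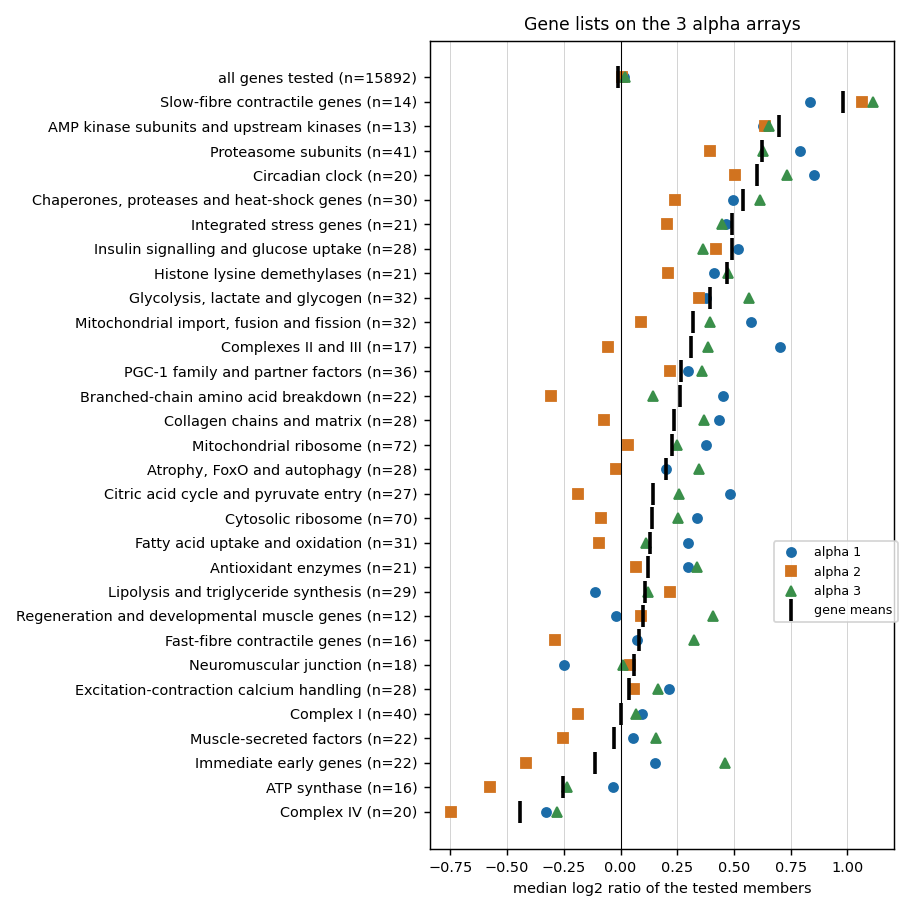
Median centred log2 ratio of the tested members of each gene list on each alpha array (symbols) and of the gene means (black ticks), with the number of genes tested in brackets. Medians of gene means run from 0.98 for slow-fibre genes to -0.44 for complex IV, beside -0.01 for all genes, and alpha 2 reads lowest for most mitochondrial lists.

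Transcription and chromatin genes with a call were mostly up, as were called genes generally (4.44% of all genes rose and 2.23% fell). The shares that rose were 15% of clock genes, 9.5% of demethylases and 4.5% of immediate early genes. They were 7.1% of matrix genes and 4.5% of muscle-secreted factors. Of 20 clock genes, 3 rose and none fell (1), with a median of 0.60: the repressor genes Nfil3 (1.96, 0.91 and 1.54, mean 1.47 ± 0.53), Bhlhe40 (1.16 ± 0.23) and Per1 (1.25 ± 0.34). No source used here gives the time of day at which muscles were taken. Of 21 histone demethylases, Kdm6b and Jmjd1c (1.66, 1.26 and 1.57, mean 1.49 ± 0.21) rose, none fell (1), and the median was 0.47. Of 22 immediate early genes, Ier3 rose (2.33, 1.62 and 1.96, mean 1.97 ± 0.36) and Egr3, with values on 2 arrays only, fell (-2.04 and -1.60). Among 28 matrix genes, the collagen-binding proteoglycan gene Fmod (mean 1.48 ± 0.17) and the gelatinase gene Mmp2 (1.29 ± 0.35) rose, and none fell (3). Among 22 muscle-secreted factors, none fell (3) and follistatin Fst rose (1.68, 0.82 and 1.42, mean 1.31 ± 0.44). Myostatin Mstn, which it binds, was at 1.25 (adjusted p = 0.0527).

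Of 36 tested genes of the PGC-1 family, Ppargc1a included, and of factors that work with it, 2 rose and none fell (5). The median was 0.27, and the share that rose was 5.56%, against 4.44% of all genes. Mef2a, a MADS-box factor of muscle, read 1.25, 1.25 and 1.31, a spread of 0.03 around a mean of 1.27. Nrip1, a corepressor of oxidative genes, read 1.31, 0.88 and 1.91 (mean 1.37 ± 0.52), with probe means from 0.76 to 2.07. The nuclear receptor Esrra, the main ERR partner, was at 0.45, -0.55 and 0.25, on both sides of 0 (mean 0.05, adjusted p = 0.913). Nrf1 was at 0.57, 0.69 and 0.14 (mean 0.47, adjusted p = 0.209) and Gabpa at 0.88, 0.50 and 1.25 (mean 0.87, adjusted p = 0.0795). Tfam, which packages and transcribes mitochondrial DNA, was at 0.24, -0.70 and -0.51 (mean -0.32, adjusted p = 0.425). The coactivator gene Ncoa1 was above 0 on all arrays (mean 0.99, adjusted p = 0.0544). Fndc5, the precursor of irisin, was below 0 on all arrays (-1.11, -0.62 and -0.77, adjusted p = 0.0737), with probes at 0.11 and -1.78. The remaining partners tested, Ppargc1a and its relatives aside, had means between -0.73 (Esrrb) and 1.23 (Med1, adjusted p = 0.0985), and none passed.

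**Figure D4:**
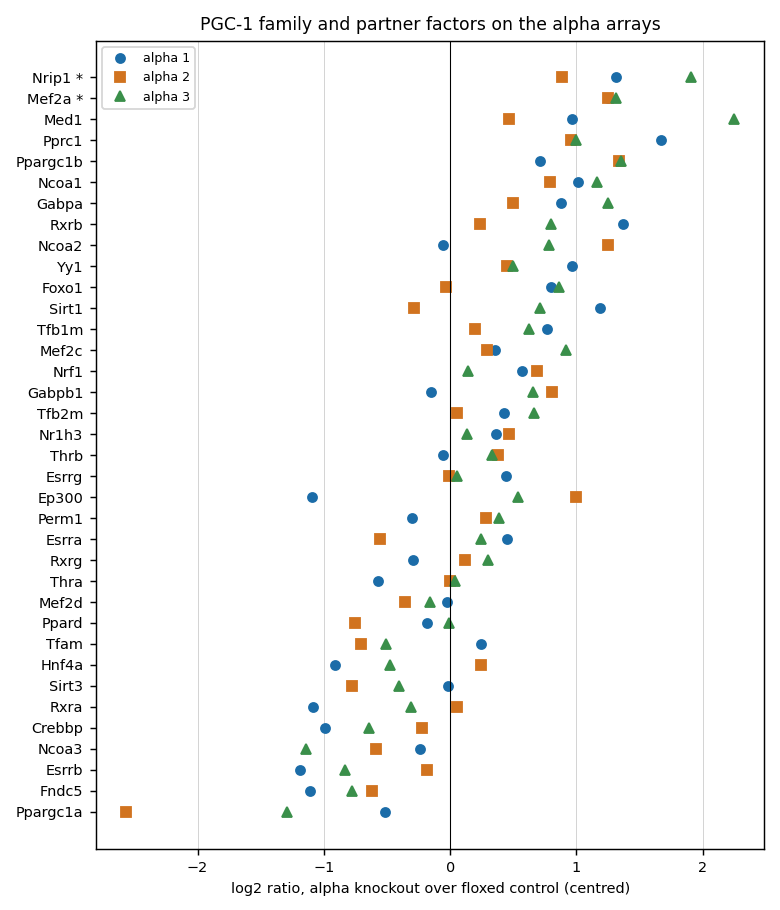
Centred log2 ratios of the PGC-1 family and partner factors on each alpha array, sorted by mean, with called genes marked by an asterisk. Mef2a lies at 1.25, 1.25 and 1.31, Esrra has values on both sides of 0, and Ppargc1a is the lowest at -0.52, -2.56 and -1.29.

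Markers of the cells in the sample are given by cell type, beside the 4.44% of all genes that rose and the 2.23% that fell. Each list held 5 to 13 genes, too few to set its share of calls apart from those. Of 13 skeletal muscle markers, 0 passed limma's test (4 in each direction at an unadjusted p under 0.05), and the median was 0.07. There were also 0 calls among 13 macrophage and leukocyte markers (2 in each direction, median 0.05), 10 smooth muscle and pericyte markers (1 higher and 2 lower, median 0.15) and 7 Schwann cell and nerve markers (1 in each direction, median -0.19). Endoglin Eng (1.10) was the only one of 10 endothelial markers called, with a list median of 0.34. Of 11 fibroblast markers, Pi16 rose (1.23) and Cd34 fell (-1.26), with a median of 0.42. The haemoglobin gene Hba-a2 rose (1.55) among 5 red blood cell markers (median 0.86, with 1.51, 0.44 and 0.79 on alpha 1 to 3). Adig fell (-1.73, 2 arrays) among 8 adipocyte markers (median -0.02), and Cdh15 was the only one of 7 satellite cell markers called. The ratios hold no level, so which markers are absent cannot be read, and the part of other cells in the gene results was not tested.

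The alpha arrays were then set against the double arrays, in a limma fit of 11 arrays without beta 3, which asked what the loss of PGC-1beta in muscle adds to that of PGC-1alpha. Of 11673 genes, 10 differed, which is 0.0857%, and all 10 were higher on the alpha arrays (1666 at an unadjusted p under 0.05). They are named here as a whole set, after their values were seen. Because that contrast picked them, their separate alpha and double values below follow from the choice and are no further support. With same-numbered arrays as a block the count was 6, with ratios of dim signals kept it was 2, and with beta 3 kept it was 0. Without double 3 it was 1.

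Most of the 10 act in mitochondria, and the share of such genes among all those tested was not counted. Chchd10, a protein of the intermembrane space, differed most clearly: it read -0.00, -0.03 and 0.61 on the alpha arrays and -3.36, -2.90 and -2.95 on the double arrays, a difference of 3.26 ± 0.30 (SE, adjusted p = 0.00365). The direct arrays, where the double knockout is the numerator, read -2.07, -1.87 and -1.69. Clybl, a mitochondrial citramalyl-CoA lyase, read 1.20, 1.19 and 1.20 on the alpha arrays and -0.87, -1.96 and -1.94 on the double arrays (difference 2.79 ± 0.34). The flavoprotein subunit gene of complex I, Ndufv1, read 0.70, 0.70 and 0.69 against -1.15, -1.69 and -1.85 (difference 2.26 ± 0.28). Both genes thus lay within 0.02 across the alpha arrays and spread over more on the double arrays.

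The set further held Sdhc (difference 2.59 ± 0.34), the complex III genes Cyc1, encoding cytochrome c1 (2.49 ± 0.34), and Uqcrc1, a core subunit (1.85 ± 0.27), and Atp5d of ATP synthase (2.31 ± 0.32). Cyc1 and Uqcrc1 were above 0 on every alpha array and below 0 on every double array with a value. Mpv17l2, of mitochondrial ribosome assembly, had the largest difference (3.78 ± 0.45), with values of 2.11, 1.51 and 1.38 against -2.81 and -1.43 on the 2 usable double arrays. Tomm40l, a relative of the import pore (1.94 ± 0.29), and Mcrip2 (2.19 ± 0.32) completed it. Against floxed control, Mpv17l2, Clybl, Sdhc and Atp5d rose on the alpha arrays, and the other 6 did not pass there. All 10 were below 0 on all 3 direct arrays, and how many of all genes were so was not counted. On beta 3, which was left out of the fit, the 7 with a value lay between -3.39 and -0.55, and on beta 1 and 2 they lay between 0.13 and 1.12.

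**Figure D5:**
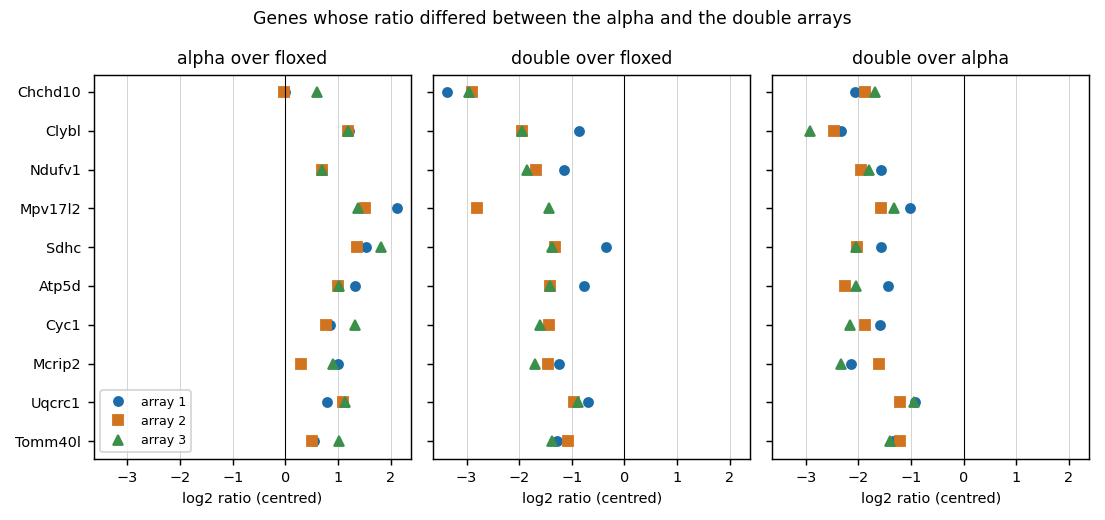
Centred log2 ratios of the 10 genes whose alpha and double ratios differed, on the alpha arrays (left), the double arrays (middle) and the direct arrays (right), with 1 symbol per array. On the double and direct arrays every value is below 0, and on the alpha arrays values run from -0.03 to 2.11. The genes were picked by the difference between the alpha and double arrays.

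The same lists showed lower medians on the double arrays than on the alpha arrays for respiration: -0.77 against 0.00 for complex I, -1.10 against 0.31 for complexes II and III, -0.998 against -0.25 for ATP synthase and -0.89 against 0.14 for the citric acid cycle. Complex IV was at -0.87 against -0.44. The double medians cover only members in the 11-array fit. These were, in the order given, 38 of 40, 16 of 17, 14 of 16 and 27 of 27 genes, and 16 of 20 for complex IV. Over the 14 ATP synthase genes of that fit the alpha median was -0.08. The alpha and double comparisons share the floxed control RNA, and list differences were not tested. Alpha and beta arrays gave no called difference: limma found 0 of 11673 genes (0%), with 221 at an unadjusted p under 0.05. With 2 beta arrays in the fit, a missed threshold does not show that the knockouts act alike.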

How the data were processed

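Per the labels' protocols, total RNA was extracted with Trizol, and Cy3- and Cy5-labelled cRNA was hybridised to Agilent arrays. The authors deposited 1 linear Cy5 over Cy3 ratio per probe and array. Each array's ratios carry 1 constant factor, found from its repeated top value of 1e+05 times that factor. No source used here gives the background correction, the scaling or the scanner. The authors' deposited up and down tables hold group mean ratios. They were used only to check the grouping.

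Ratios of 0 or below and the repeated top value were treated as undefined. Dim or equal signals give ratios that, divided by the factor, are quotients of 2 whole numbers up to 10. Ratios within 0.0006 of such a quotient were dropped. This rule reads the ratio, not the signal, and can leave out brighter spots. A gene's value on an array is the mean log2 ratio of its probes (32443 probes carried 1 symbol in the platform annotation, 44 several and 8441 none). Each array was centred on its median gene.

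Genes with values on at least 2 alpha arrays entered limma 3.58.1 in R 4.3.3 (lmFit, eBayes, two-sided, against 0), with Benjamini-Hochberg adjustment over all genes tested. This test holds no spread between control samples, and the number of arrays limits its precision. Over 3 arrays alone, a sign-flip permutation test can reach no p below 0.25. Alpha minus double and alpha minus beta were fitted over 11 arrays with 1 shared spread, needing 2 values per group. Beta 3 was left out because it stood apart from the other arrays (undefined at 27.6% of probes, with an SD over genes of 1.945). Direct 3 (23.7% and 1.438) and double 3 (21.5% and 1.138) were kept. Deviations from the group means correlated between same-numbered alpha and double arrays at 0.50, 0.23 and 0.13 over 8755 genes. Alpha 2 and double 3, of unlike number, reached 0.31, and the other unlike pairs lay between -0.48 and -0.03. Same-numbered alpha and double arrays also share a channel label, so the block is printed beside the alpha minus double result.

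On simulated data for the alpha arrays, with 15892 genes of which 200 were shifted, limma recovered 45% of shifts of 2 and 80% of shifts of 3, with 6 false calls of 131. With 3973 genes shifted by 1 and 200 each by 2 and 3 it recovered 26.4% of shifts of 1, 88% of shifts of 2 and 97% of shifts of 3.

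Named genes were Ppargc1a, Ppargc1b and the comparison's markers, the 10 largest called changes in each direction with 1 sign on 3 arrays, up to 5 called members of each list by adjusted p (where none passed, up to 2 by p), and PGC-1 partners. Other members, with a p above the threshold, were named to describe their lists after their values were seen. The members and lists were chosen with earlier results of these data known. List genes without a usable value were not analysed here.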

Additional observations from a re-analysis of the deposited data

How the results depend on the processing

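Against the 1060 genes called, limma called 789 without centring, 1371 after scaling arrays to 1 spread and 1170 with the median of a gene's probes. It called 1735 with 11 arrays sharing 1 spread, 141 with all 12, 2287 among genes with a value on all 3 arrays, and 569 with a dye term, of which 56.9% were higher against 66.6%. Grouping by channel label gave 2640, of which 58.2% were higher. Keeping dim or equal signals gave 0. With same-numbered arrays as a replicate block in the 11-array fit, 2270 genes were called. Leaving out 1 alpha array gave 0 to 228, of which 49.6% were higher at 228. With 2 arrays the fit has fewer residual degrees of freedom, and the cause of the other changes was not tested. Alpha minus double gave 10 genes, 6 with the replicate block (5 higher, 1 lower), 2 with dim signals kept (1 in each direction), 0 with 12 arrays and, in an alternative chosen after seeing the data, 1 without double 3. Alpha minus beta gave 0 in each of these. Of 109 named genes called, 1 turned direction, Thap6 (-0.045 with the dye term), and 48 of the 103 tested there stayed past the threshold. Medians above 0 were found for 26 of 30 lists, and for 21 to 27 under the alternatives. Of 33 named called genes with several usable probes, 3 had probes of opposite sign.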
